A study of Mus musculus with 2 samples.

Results

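Gpr151, Gpr139, Gpr26 and Gpr4 are 4 of the 28692 genes counted in single cells of the mouse habenula, and they were taken by name as G protein-coupled receptors of the structure. All 4 were present in both libraries. G protein-coupled receptors pass a signal at the cell surface to G proteins inside, and an orphan receptor is one whose natural ligand has not been agreed. Gpr151 is an orphan receptor known for its strong expression in habenula neurons and their axons, and Gpr139 is known for responding to aromatic amino acids and for its expression in the medial habenula. Gpr26 is an orphan of the brain with activity in the absence of ligand, and Gpr4 senses extracellular protons and is best known from blood vessel endothelium.

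The habenula, above the thalamus, is divided into the medial (MHb) and the lateral habenula (LHb), and sends its axons to the midbrain. Tissue was punched from slices of adult male C57BL/6 mice aged 50 to 55 days, and cells of 4 mice were pooled into 1 droplet library for each of 2 groups. Mice of the foot shock group had been handled for 5 min per day on 7 days, had spent 10 min per day on 7 days in the shock chamber, and received 30 shocks of 0.3 mA and 1 s, at a mean interval of 116 s, in a session of 60 min that ended just before tissue was taken. Mice of the control group had been handled in the same way and came straight from the home cage. Both groups were dissociated with pronase in solutions that held blockers of firing, transcription and translation, and dead cells were removed. The foot shock group thus differs from the control group in chamber exposure as well as in shock, and with 1 library each the condition and the library cannot be told apart. No test between groups was made. Intervals are exact 95% intervals that cover counting error only, and cells of 1 library are not replicates. All intervals of levels and ratios assume that molecules fall independently over cells, and they leave out spread between cells.

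The foot shock library held 22189951 unique molecular identifiers (UMIs, counted molecules) and the control library 23095501. Levels are given in CPM, the UMIs of a gene per 1000000 UMIs of its class and library. Filtering kept 4771 cells of the foot shock library (median 2698 UMIs) and 4880 of control (median 2416.5 UMIs), and 32 cell barcodes occurred in both. Classes were named from marker genes. The medial marker Tac2, a tachykinin, had 612 and 583 CPM in MHb-like neurons, and the lateral marker Gap43, a growth cone protein, had 714 and 596 CPM in LHb-like neurons. MHb-like neurons numbered 1612 in the foot shock library and 1204 in control, and LHb-like neurons 652 and 565. They formed 7 and 4 clusters, which are called here by their leading genes. Another 397 foot shock and 676 control neurons fell into 4 clusters with little Pou4f1, the transcription factor that marks habenula neurons, and are called Pou4f1-low. A class of 503 keratin-expressing epithelial cells was found in the foot shock library, against 0 in control, and 1 to 3 UMIs of each receptor were counted in it. Counted molecules of this kind come from the 3′ end of transcripts and do not scale with transcript length.

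The 4 receptors had 4 different distributions over habenula neurons. Gpr151 was highest in a lateral cluster and lowest in the medial clusters led by Synpr, Gpr139 was highest in 1 medial and 1 lateral cluster, Gpr26 had the narrowest range over clusters, and Gpr4 was counted mainly in part of the medial clusters. Shares were taken over the UMIs of cells in named classes, without mixed or unnamed cells. MHb-like neurons held 55.8% of the Gpr151 UMIs in the foot shock library and 56.5% in control, and LHb-like neurons held 40.8% in each. MHb-like neurons held 91.6% of the Gpr4 UMIs in the foot shock library and 84.7% in control, and LHb-like neurons 2.16% and 0.820%. Over all kept cells Gpr4 had 394 UMIs in the foot shock library and 369 in control, of which MHb-like neurons held 340 and 310. Gpr151 had 3027 and 2279 UMIs, of which MHb-like neurons held 1655 and 1282.

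**Figure D1:**
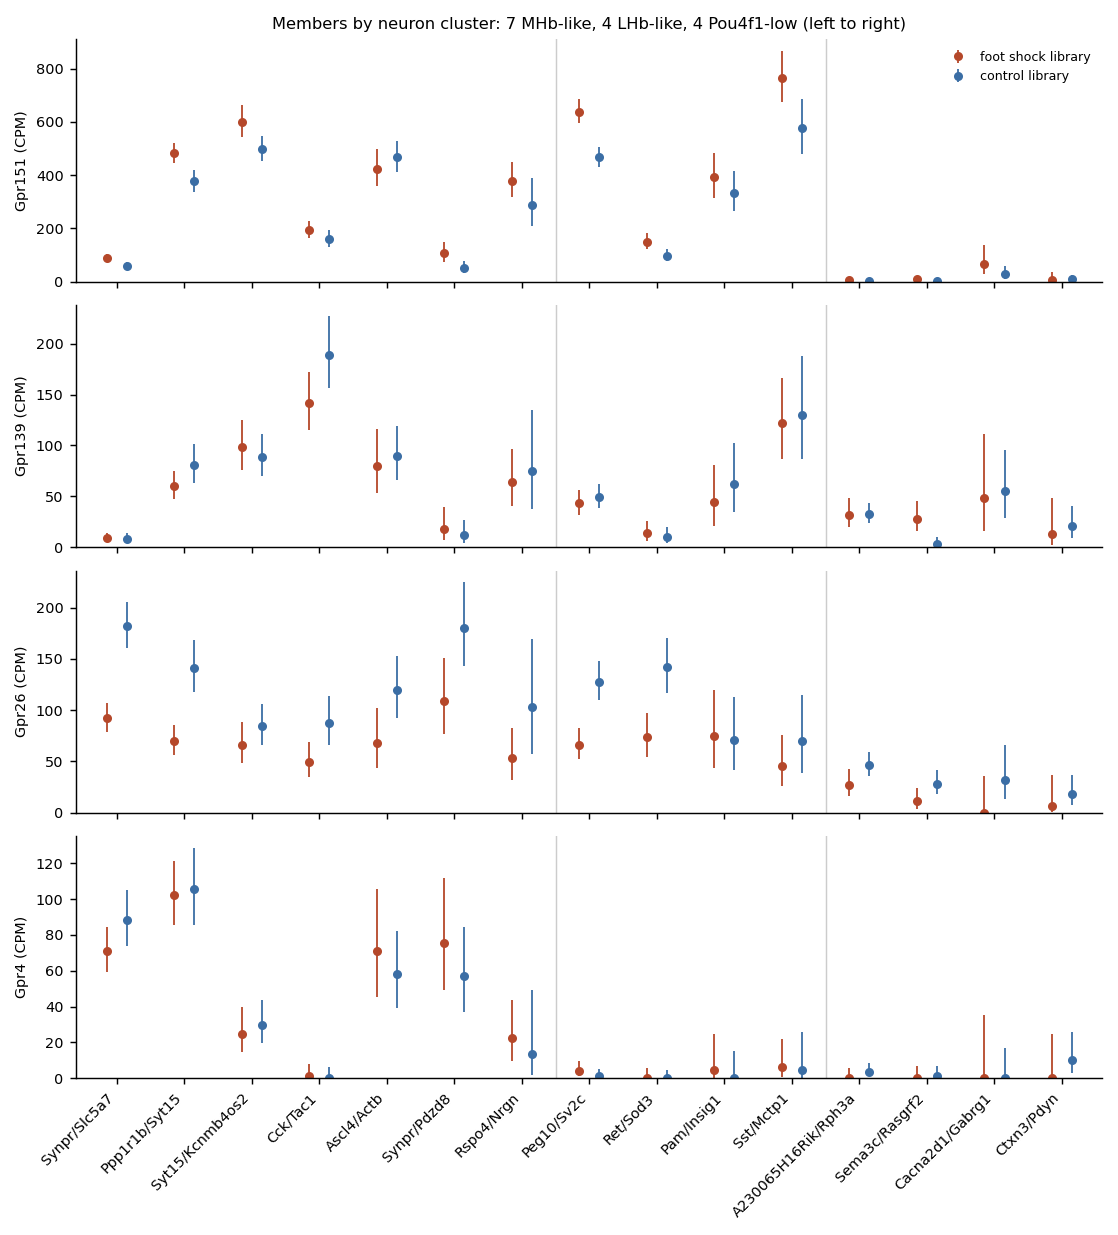
Level (CPM, y axis) of each receptor in the 7 MHb-like, 4 LHb-like and 4 Pou4f1-low clusters (x axis), with the foot shock library left of the control library in each pair. Points are sums over the cells of a cluster and bars are exact Poisson 95% intervals. Gpr151 peaks in Sst/Mctp1 at 765 and 576 CPM, Gpr139 in Cck/Tac1 at 142 and 189 CPM, and Gpr4 in Ppp1r1b/Syt15 at 102 and 106 CPM.

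Gpr151 (ENSMUSG00000042816) lies on chromosome 18 at 42577881 to 42579652 on the minus strand (mm10) and has 1 exon. MHb-like neurons held it at 297 CPM in the foot shock library (interval 282.9 to 311.7) and 257 CPM in control (242.8 to 271.1), and LHb-like neurons at 498 CPM (470.5 to 527.0) and 352 CPM (329.6 to 375.4). The highest level was in Sst/Mctp1, an LHb-like cluster of 96 foot shock and 49 control cells led by the somatostatin gene, with 765 CPM and 576 CPM. It stood above Peg10/Sv2c, the next cluster by the mean of both libraries, in each of them. In control the next cluster was instead Syt15/Kcnmb4os2, with 499 CPM, and no interval was taken for that pair. Peg10/Sv2c (LHb-like) followed with 638 and 467 CPM, and Syt15/Kcnmb4os2 (MHb-like) with 601 and 499 CPM, and these neighbours did not separate in both libraries. Ascl4/Actb, Ppp1r1b/Syt15, Pam/Insig1 and Rspo4/Nrgn came next, between 287 and 482 CPM.

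The lowest habenula levels of Gpr151 were in the clusters led by Synpr, a synaptic vesicle protein, 1 of which is also led by Slc5a7, the choline transporter of cholinergic neurons. Synpr/Slc5a7 had 89.9 CPM in the foot shock library and 58.8 CPM in control, and Synpr/Pdzd8 had 106 and 50.3 CPM. Within MHb-like neurons the highest cluster, Syt15/Kcnmb4os2, was 6.68 times the lowest in the foot shock library (5.57 to 8.05) and 9.94 times in control (6.48 to 16.0), where the lowest was Synpr/Pdzd8. Within LHb-like neurons Sst/Mctp1 was 5.15 times Ret/Sod3 in the foot shock library (4.06 to 6.57) and 5.89 times in control (4.40 to 7.92). Pou4f1-low neurons had 10.9 CPM and 5.64 CPM, below the 49.5 and 42.7 CPM of free RNA. Free RNA is the summed content of barcodes with 10 to 100 UMIs, too few for a cell. Of Sst/Mctp1 cells, 83 of 96 in the foot shock library and 46 of 49 in control had at least 1 Gpr151 UMI.

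Gpr139 (ENSMUSG00000066197) lies on chromosome 7 at 119140747 to 119184603 on the minus strand and has 2 exons. MHb-like neurons had 56.9 CPM in the foot shock library (50.8 to 63.5) and 68.9 CPM in control (61.8 to 76.5), and LHb-like neurons had 45.6 CPM (37.5 to 54.9) and 45.2 CPM (37.5 to 54.1). Cck/Tac1, an MHb-like cluster led by the genes of the peptides cholecystokinin and substance P, had the highest level with 142 and 189 CPM. Sst/Mctp1 followed with 122 and 130 CPM, and the interval of the difference between these 2 did not leave equality in both libraries. The Synpr clusters and Ret/Sod3 were at the other end of the habenula clusters. Synpr/Slc5a7 had 16 UMIs or 8.62 CPM in the foot shock library and 11 UMIs or 7.52 CPM in control. Cck/Tac1 was 16.5 times that cluster in the foot shock library (9.66 to 29.9) and 25.2 times in control (13.6 to 51.8). Among Cck/Tac1 cells, 79 of 231 in the foot shock library and 84 of 162 in control had a Gpr139 UMI.

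Gpr139 was also counted in neurons with little Pou4f1. Pou4f1-low neurons had 29.3 CPM from 43 UMIs in the foot shock library and 23.6 CPM from 67 UMIs in control, against 14.5 and 7.76 CPM in free RNA. Their 4 clusters differed. A230065H16Rik/Rph3a had 31.5 CPM from 21 UMIs and 32.2 CPM from 44 UMIs, and Cacna2d1/Gabrg1 had 47.9 CPM from 5 UMIs and 55.0 CPM from 12 UMIs, both with intervals above free RNA in each library. Sema3c/Rasgrf2 had 27.5 CPM in the foot shock library and 3.51 CPM in control, and Ctxn3/Pdyn had 13.2 and 20.3 CPM, so that each was below free RNA in 1 library.

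Gpr26 (ENSMUSG00000040125) lies on chromosome 7 at 131966460 to 131994405 on the plus strand and has 3 exons. The annotated span of Fgfr2 on the minus strand covers it, and no source used here says whether the counting used strand. Fgfr2 was highest in oligodendrocyte-like cells, at 261 and 308 CPM, where Gpr26 had 3.43 and 3.78 CPM. In MHb-like neurons Gpr26 had 75.4 CPM in the foot shock library (68.3 to 82.9) and 137 CPM in control (126.5 to 147.2), and in LHb-like neurons 66.2 CPM (56.3 to 77.2) and 122 CPM (109.0 to 136.1). It varied less between MHb-like clusters than the other 3 receptors. Its highest MHb-like cluster was 2.19 times the lowest in the foot shock library (1.34 to 3.60) and 2.16 times in control (1.66 to 2.83).

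Among the 11 habenula clusters the ends of the Gpr26 order were opposite to those of the Gpr151 order. The Synpr clusters had the highest levels, with 109 and 181 CPM in Synpr/Pdzd8 and 92.1 and 182 CPM in Synpr/Slc5a7, and Sst/Mctp1 had the lowest level, with 45.7 and 69.7 CPM. No 2 neighbours in the order by the mean of both libraries separated in each of them. As a class, Pou4f1-low neurons had 17.0 CPM in the foot shock library and 35.6 CPM in control. Free RNA had 15.6 and 30.2 CPM, and oligodendrocyte-like cells 3.43 and 3.78 CPM. The Pou4f1-low clusters differed. A230065H16Rik/Rph3a had 27.0 CPM from 18 UMIs and 46.1 CPM from 63 UMIs, with intervals above free RNA in each library. Levels in Sema3c/Rasgrf2, Cacna2d1/Gabrg1 and Ctxn3/Pdyn were below free RNA, except Cacna2d1/Gabrg1 in control, with 32.1 CPM from 7 UMIs.

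Gpr4 (ENSMUSG00000044317) lies on chromosome 7 at 19212538 to 19224174 on the plus strand and has 2 exons. MHb-like neurons had 61.0 CPM from 340 UMIs in the foot shock library (54.7 to 67.9) and 62.1 CPM from 310 UMIs in control (55.3 to 69.4). LHb-like neurons had 8 UMIs or 3.29 CPM and 3 UMIs or 1.14 CPM, below the 21.5 and 17.5 CPM of free RNA. Ppp1r1b/Syt15 had the highest level, with 102 and 106 CPM. With coarser clusters, at resolution 0.5, the highest were instead Ascl4/Pim1 in the foot shock library, with 76.1 CPM, and Synpr/Slc5a7 in control, with 87.8 CPM. Synpr/Slc5a7, Synpr/Pdzd8 and Ascl4/Actb followed between 57.1 and 88.2 CPM and did not separate from their neighbours above in both libraries, and Ascl4/Actb stood above Syt15/Kcnmb4os2, with 24.9 and 29.6 CPM, in both libraries.

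Within the medial habenula, Cck/Tac1 was the exception for Gpr4. It had 1 Gpr4 UMI among 231 foot shock cells and 0 among 162 control cells, where the upper end of the exact interval was 5.97 CPM. Ppp1r1b/Syt15 was 71.9 times Cck/Tac1 in the foot shock library (12.7 to 2862) and, against a floor of 3 UMIs, at least 21.7-fold higher in control, where the lower end of the exact interval was 17.3. Cck/Tac1 thus had the highest Gpr139 and the lowest Gpr4 level of the MHb-like clusters, while Synpr/Slc5a7 had the lowest Gpr139 level and was among the 4 highest for Gpr4. Across 23 classes and clusters the Pearson correlation of log2(CPM + 10) between Gpr4 and Gpr139 was 0.04 in the foot shock library and -0.02 in control, a description of groups that share libraries.

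**Figure D2:**
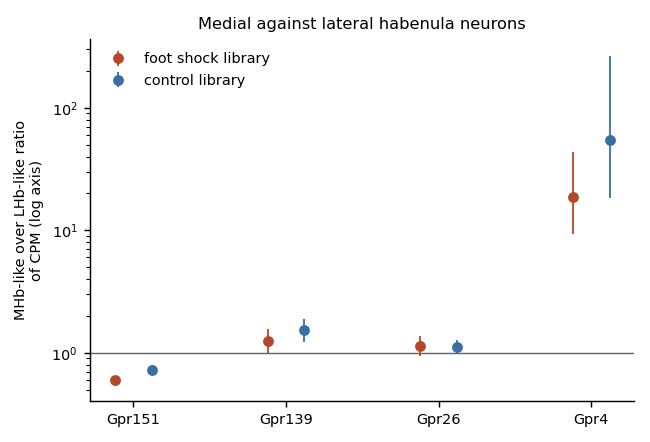
MHb-like over LHb-like ratio of CPM (y axis, log scale) for each receptor (x axis), with the foot shock library left of control. Bars are exact conditional 95% counting intervals. Gpr4 lies at 18.6 and 54.4, Gpr139 and Gpr26 between 1.12 and 1.52, and Gpr151 at 0.596 and 0.729.

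The MHb-like over LHb-like ratio of Gpr4 was 18.6 in the foot shock library (9.31 to 43.3) and 54.4 in control (18.5 to 265), where the lateral count was 3 UMIs. That of Gpr139 was 1.25 (1.00 to 1.56) and 1.52 (1.23 to 1.89), and that of Gpr26 was 1.14 (0.948 to 1.37) and 1.12 (0.979 to 1.28), so the Gpr26 interval held equality in each library. Gpr151 was lower in medial neurons, with a ratio of 0.596 (0.553 to 0.643) and 0.729 (0.670 to 0.794). Past a fold of 1.5, in either direction, in the foot shock library, 1 receptor was higher in MHb-like neurons and 1 lower, where 11.6% and 19.7% of all 11567 genes with at least 20 UMIs were. In control 2 were higher and 0 lower, against 11.9% and 19.6% of 11568 genes. The Gpr151 ratio depended on which neurons were counted as lateral. LHb-like neurons were also taken with the 2 Pou4f1-low clusters that hold at least 1 Pou4f1 count per 10000, the planned cut. The ratio was then 0.779 in the foot shock library and 1.16 in control. With classes set by marker UMIs of each cell it was 0.984 and 1.60.

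In shares of cells, each cell thinned to 1000 UMIs, a Gpr151 UMI was found in 24.7% of foot shock and 21.6% of control MHb-like neurons, and among LHb-like neurons in 33.8% and 27.0%. Gpr26 was found in 7.19% of foot shock and 12.5% of control MHb-like neurons, and Gpr139 in 5.88% and 6.92%. Gpr4 was found in 5.48% and 5.40% of MHb-like neurons. Oligodendrocyte-like cells, which should lack these genes, gave shares from 0.191% to 0.513% in the foot shock library and from 0% to 0.366% in control, at median depths of 1860 and 2067.5 UMIs. The 0% was Gpr139, with 0 of 1084 cells, for which 3 counts give 0.277% and the exact upper limit was 0.340%, both for cells with a UMI at this depth. Without thinning, at median depths of 3464 and 4224.5 UMIs, Gpr151 was found in 51.4% and 51.7%, Gpr26 in 21.7% and 40.0%, Gpr139 in 16.3% and 22.3%, and Gpr4 in 17.4% and 18.9% of MHb-like neurons. Most positive cells held a single UMI of Gpr139, Gpr26 or Gpr4. Of MHb-like neurons with Gpr151, 224 of 828 in the foot shock library and 184 of 622 in control held 3 or more.

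The receptors overlapped in single MHb-like neurons at 0.949 to 1.19 times the number their shares gave in the foot shock library and 1.02 to 1.18 times in control. Depth was not held equal between the cells of a cluster. In cells with at least 3000 UMIs the range was 0.937 to 1.12 in the foot shock library and 0.990 to 1.11 in control. Cells with both Gpr151 and Gpr4 numbered 165 in the foot shock library, against 152 from the product of the shares within clusters, and 123 in control, against 113. Cells with both Gpr26 and Gpr4 numbered 72 against 69.8 in the foot shock library and 124 against 105 in control. For Gpr151 and Gpr26 the counts were 163 against 172 and 241 against 230.

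The comparison of foot shock with control asked whether the level of a receptor in the same class differed after the session. In habenula neurons Gpr26 was the member that differed past the fold of 1.5, and it was lower after foot shock in both classes. Its 75.4 CPM in foot shock MHb-like neurons, against 137 CPM in control, gave a ratio of 0.552 (0.488 to 0.624), and its 66.2 CPM in foot shock LHb-like neurons, against 122 CPM in control, gave 0.542 (0.446 to 0.657). In MHb-like neurons 185 of 11742 genes had a lower ratio, and among 2657 genes with a similar number of UMIs 0.0376% did. In LHb-like neurons 195 of 10960 genes were lower.

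Of the 4 receptors in MHb-like neurons, 0 were higher and 1 lower past the fold, against 3.02% and 4.63% of all genes. Of the 3 with at least 20 UMIs in LHb-like neurons, 0 were higher and 1 lower, against 3.91% and 5.79%. The lower level of Gpr26 was spread over clusters. In 9 habenula clusters with at least 50 cells in each library, its ratio was below 1 in 8 and past the fold in 7. Of all genes, the share lower past the fold was 6.31% in Synpr/Slc5a7, 8.1% in Ppp1r1b/Syt15, 7.81% in Peg10/Sv2c, 9.14% in Ret/Sod3, 11.3% in Cck/Tac1, 11.6% in Ascl4/Actb and 10.5% in Synpr/Pdzd8, the 7 clusters with lower Gpr26, and 12.4% in Syt15/Kcnmb4os2 and 11.7% in Pam/Insig1. Sst/Mctp1 and Rspo4/Nrgn had 49 and 44 control cells and are given no ratio. The ratio was 0.494 in Ppp1r1b/Syt15 (0.374 to 0.651), 0.506 in Synpr/Slc5a7 (0.415 to 0.616), 0.517 in Peg10/Sv2c (0.392 to 0.677) and 0.519 in Ret/Sod3 (0.363 to 0.732). The exceptions were Syt15/Kcnmb4os2 with 0.782 (0.527 to 1.15) and Pam/Insig1 with 1.06 (0.507 to 2.20) from 17 UMIs in each library. Of 3 receptors with enough UMIs in Pou4f1-low neurons, Gpr26 was lower, with a ratio of 0.478 (0.295 to 0.746), and Gpr151 higher, with 1.93 (0.904 to 4.12) from 16 UMIs in each library, where 8.22% and 3.85% of genes were. Gpr26 in free RNA was 15.6 CPM in the foot shock library and 30.2 CPM in control, so free RNA differed in the same direction, and its part in the result was not tested. Over 11 alternatives, among them a subtraction of free RNA and a fixed share of each cluster, the ratio ranged from 0.548 to 0.569 in MHb-like and from 0.513 to 0.631 in LHb-like neurons. The subtraction removed an assumed small share of each class total. Free RNA differed between the libraries in the same direction, so this range could not show its part.

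**Figure D3:**
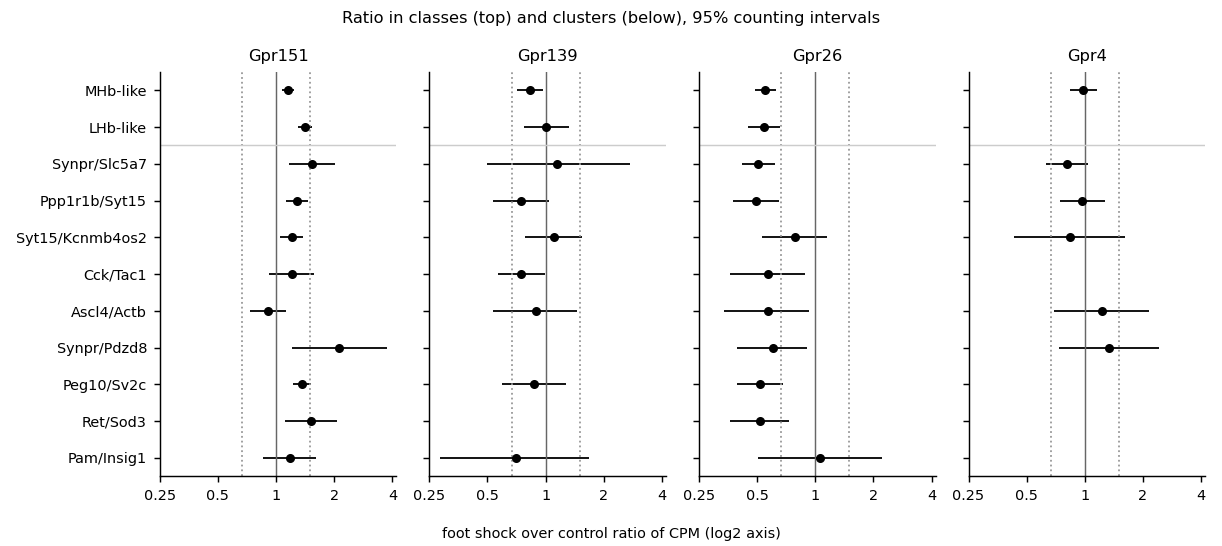
Foot shock over control ratio of CPM (x axis, log2 scale) for each receptor in MHb-like and LHb-like neurons (top rows) and in clusters of 50 or more cells per library and 20 or more UMIs (rows below). Bars are exact conditional 95% counting intervals, and dotted lines mark a fold of 1.5 in each direction. Gpr26 lies left of 1 in 8 of 9 clusters, and Gpr151 right of 1 in 8 of 9.

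Gpr151 was higher in the foot shock library by a smaller factor. The ratio was 1.16 in MHb-like neurons (1.08 to 1.25) and 1.42 in LHb-like neurons (1.30 to 1.54), and neither passed the fold. Without Ppp1r1b/Syt15, the MHb-like cluster whose leading genes went against its name in a first check, the MHb-like ratios were 1.05 for Gpr151, 0.845 for Gpr139, 0.569 for Gpr26 and 0.928 for Gpr4. With lateral neurons taken more widely, the LHb-like ratio of Gpr151 passed the fold. It was 1.72 with the planned 1 Pou4f1 count per 10000 and 1.84 with classes from marker UMIs. The 7 MHb-like markers summed to 534 CPM in foot shock and 372 CPM in control LHb-like neurons, and their part in the LHb-like ratio was not tested. In LHb-like neurons 584 of 10960 genes had a higher ratio. The ratio was above 1 in 8 of 9 clusters and past the fold in 3, Ret/Sod3 (1.52, interval 1.12 to 2.07), Synpr/Slc5a7 (1.53, 1.17 to 2.01) and Synpr/Pdzd8 (2.11, 1.20 to 3.77), where 6.46%, 4.4% and 9.64% of genes were. In the other 6 clusters the share of genes higher past the fold was 5.55% in Peg10/Sv2c, 6.37% in Ppp1r1b/Syt15, 5.65% in Syt15/Kcnmb4os2, 7.12% in Cck/Tac1, 10.1% in Ascl4/Actb and 12.1% in Pam/Insig1. The Gpr151 ratio was 0.910 in Ascl4/Actb (0.735 to 1.12), a cluster with a median of 1785 UMIs per foot shock cell and 3835 per control cell. Depth also differed in Synpr/Pdzd8, the cluster with the largest ratio, with medians of 2283 and 4417 UMIs. That ratio came from 35 and 22 Gpr151 UMIs. Free RNA held 49.5 CPM of Gpr151 in the foot shock library and 42.7 CPM in control.

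Outside neurons Gpr151 was also counted more in the foot shock library. Oligodendrocyte precursor-like cells had 18 UMIs or 94.2 CPM, against 7 UMIs or 21.1 CPM in control, a ratio of 4.46 (1.78 to 12.6), and microglia-like cells had 16 UMIs or 120 CPM, against 7 UMIs or 37.9 CPM, a ratio of 3.18 (1.24 to 9.13). In these classes 15.1% and 22.8% of genes were higher past the fold. Endothelial-like cells, 46 in the foot shock library and 64 in control, had 15 UMIs and 1 UMI. In microglia-like cells the other receptors were also higher in the foot shock library, with 6 and 0 UMIs of Gpr139, 5 and 3 of Gpr26 and 3 and 0 of Gpr4, while all 6 microglia markers were lower, among them Cx3cr1 at 1954 and 3375 CPM and P2ry12 at 631 and 1174 CPM. The part of neuronal RNA in these counts was not tested. The Gpr151 UMIs lay in few cells. The foot shock counts came from 6 of 108 precursor-like, 10 of 72 microglia-like and 6 of 46 endothelial-like cells, so that molecules were not spread independently over cells and the intervals, which assume that, are too narrow. The neuron intervals make the same assumption, and Gpr151 was uneven over neurons too. In the foot shock library 256 of 652 LHb-like neurons held 0 Gpr151 UMIs and 213 held 3 or more. Oligodendrocyte-like cells had 5.15 and 2.52 CPM. Cells joined to a neuron were not tested for in these classes beyond the removal of called doublets, 1.43% of foot shock and 4.85% of control cells.

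**Figure D4:**
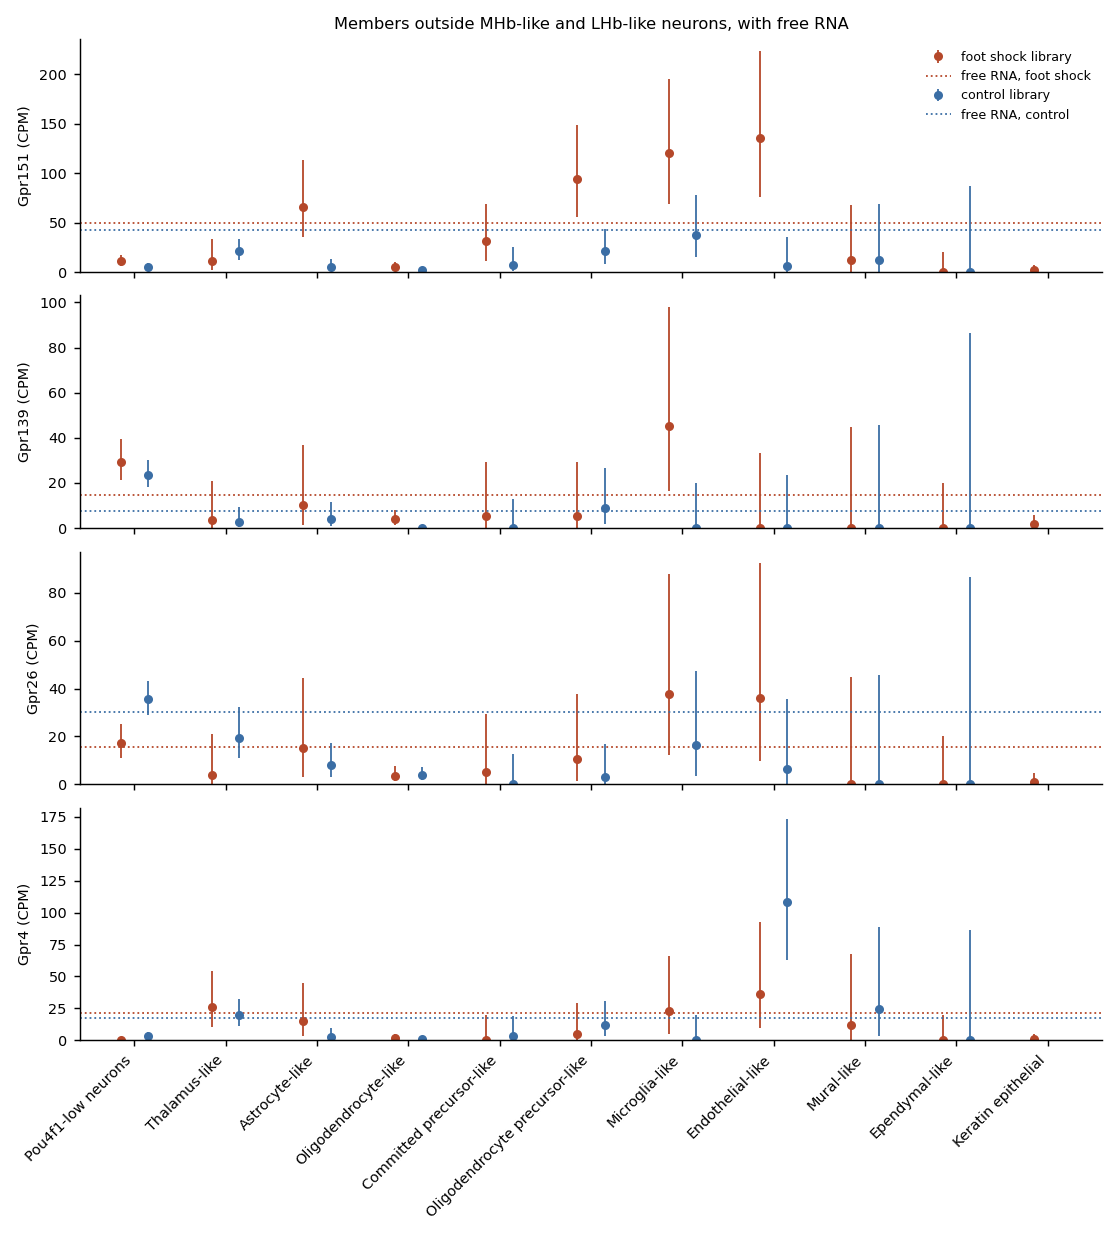
Level (CPM, y axis) of each receptor in Pou4f1-low and thalamus-like neurons, glia, vascular, ependymal and keratin epithelial cells (x axis), with foot shock left of control and exact Poisson 95% intervals. Dotted lines mark free RNA of each library. Gpr151 reaches 136 CPM in foot shock endothelial-like cells, against 6.38 CPM in control, and Gpr4 reaches 108 CPM in control endothelial-like cells, against 36.2 CPM in foot shock.

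Gpr139 and Gpr4 did not pass the fold in any class or cluster with enough UMIs and cells for a ratio. The Gpr139 ratio was 0.826 in MHb-like neurons (0.707 to 0.965) and 1.01 in LHb-like neurons (0.772 to 1.32), and it was 0.750 in Cck/Tac1 (0.568 to 0.988). The Gpr4 ratio was 0.983 in MHb-like neurons (0.840 to 1.15), an interval whose ends lie inside the fold, and it ranged from 0.806 to 1.33 over 5 clusters. In endothelial-like cells Gpr4 had 4 UMIs or 36.2 CPM in the foot shock library (9.86 to 92.6) and 17 UMIs or 108 CPM in control (63.2 to 173.7), and no ratio is given for fewer than 50 cells in a library. Thalamus-like neurons had 7 UMIs or 26.4 CPM of Gpr4 and 15 UMIs or 19.5 CPM.

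Markers of glia and vessels in habenula neurons were far below their own classes in both libraries. The 7 astrocyte markers summed to 97.1 CPM in foot shock MHb-like neurons and 89.1 CPM in control, against 8341 and 9520 CPM in astrocyte-like cells. The 6 endothelial markers summed to 10.2 and 6.81 CPM in MHb-like neurons, with 1 of them at 0 in each library, against 6756 and 9372 CPM in endothelial-like cells. In LHb-like neurons the astrocyte markers summed to 143 and 125 CPM, with 0 and 1 at 0, and the endothelial markers to 10.7 and 4.18 CPM, with 1 and 4 at 0. The 7 LHb-like markers summed to 69.8 and 82.1 CPM in MHb-like neurons, against 2336 and 2560 CPM in LHb-like neurons. The 7 MHb-like markers, given above for LHb-like neurons, summed to 1983 and 1958 CPM in MHb-like neurons.

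By the correlation of log2(CPM + 10) over the 23 classes and clusters, averaged over both libraries, the genes most like Gpr151 were Htr5b, a serotonin receptor (0.92), Nptx2, a neuronal pentraxin (0.90), A330050F15Rik (0.88), Necab2, a calcium-binding protein (0.88), and Pbx3, a transcription factor (0.88). Those most like Gpr139 were the transcription factor Scx (0.84), A330050F15Rik (0.83), the somatostatin receptor Sstr2 (0.81), Greb1l (0.81) and Riiad1 (0.81). Those most like Gpr26 were the calcium channel subunit Cacnb3 (0.90), Sh3bgrl2 (0.90), Pou4f1 (0.88), the GABA-B receptor subunit Gabbr1 (0.87) and the transcription factor Nr4a2 (0.87). Those most like Gpr4 were the phospholipase Plch2 (0.79), Impdh1 (0.79), the transcription factor Tcf7 (0.78), Tnfaip2 (0.77) and Syne1 (0.77). These values describe groups that share libraries and depth, over 10327 candidate genes. With a pseudocount of 1, or with ranks, 1 to 3 of the 5 genes of each receptor were again among its 5.

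Related genes were taken from lists chosen with earlier results of these data in view. The proton-sensing receptors Gpr65 and Gpr132 had 0 UMIs in MHb-like and LHb-like neurons. Of genes linked with Gpr139, the mu opioid receptor Oprm1 was counted at 21.4 and 24.0 CPM in MHb-like neurons and 13.2 and 9.88 CPM in LHb-like neurons, while Gpr142, the closest relative, Drd2 and Mc5r had 0 UMIs in both. Of the galanin family, to which Gpr151 is related in sequence, Kiss1r, the kisspeptin receptor, had 9.69 and 11.8 CPM in MHb-like neurons and 11 and 18 UMIs in LHb-like neurons, a ratio past the fold there of 0.661 (0.282 to 1.48). Gal, Galr1 and Galr2 had at most 3 UMIs in any of these groups.

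Of 28 other orphan receptors with at least 20 UMIs in MHb-like neurons, 1 was higher and 1 lower past the fold, near the 3.02% and 4.63% of all genes, with a median log2 ratio of -0.05 against -0.04 for all genes, and of 25 in LHb-like neurons 0 were higher and 0 lower, where 3.91% and 5.79% of all genes were, with a median of 0.01 against -0.04. Gpr75 was the one that was higher, with 14.2 and 9.21 CPM, and Gpr37l1 the one that was lower, with 8 and 13 UMIs. Gpr85, an orphan of the brain, had the highest level of the list in MHb-like neurons, with 95.5 and 99.3 CPM.

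Of G protein alpha subunits, which carry the signal of these receptors, 0 of 11 passed the fold in MHb-like neurons, with a median log2 ratio of -0.07, and 0 were higher and 1 of 11 lower in LHb-like neurons, with a median of -0.03. The shares of all genes given for the orphan receptors hold for these lists too. The gene that was lower was Gna13, with 21.8 CPM in the foot shock library and 43.3 CPM in control, a ratio of 0.503 (0.356 to 0.702). Of adenylyl cyclases, which make cyclic AMP, and RGS proteins, which end G protein signals, 1 of 18 was higher in MHb-like neurons (Adcy5, 15 and 7 UMIs) and 1 of 19 in LHb-like neurons (Adcy9, 16.0 and 7.98 CPM), with 0 lower in either and medians of -0.03 and 0.01. Between medial and lateral neurons, 2 of 19 were higher in MHb-like neurons and 9 lower in both libraries, where 8.04% and 13.6% of 11339 genes were. Rgs6, named after its values were seen, had in foot shock 269.9 CPM in MHb-like and 48.5 CPM in LHb-like neurons, and 251 and 55.1 CPM in control. By the same rule 0 of 11 G protein alpha subunits were higher and 2 lower, and 3 of 26 other orphan receptors were higher and 7 lower.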

How the data were processed

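The authors deposited, for every gene and each of 737280 barcodes, UMI counts without normalization. The submitters' processing notes name Cell Ranger 2 and mm10, and no source used here gives the annotation release. Because empty droplets were included, barcodes were kept as cells with at least 1000 UMIs, 500 to 6000 genes, at most 20% mitochondrial UMIs. Scrublet in scanpy 1.11.5 removed 69 foot shock (1.43%) and 249 control (4.85%) cells. Both libraries were clustered together with Leiden at resolution 1.0, with the receptors and the lists kept out of the features. A cluster was named when it held at least 3 markers. The way markers were scored was set after clusters were seen, and so was the 3 Pou4f1 counts per 10000 required for a habenula name, where 1 had been planned. Mixed or unnamed cells, 118 foot shock and 14 control, were left out. Gene positions come from GENCODE vM21.

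The names of 28 clusters were checked by the markers among their 10 leading genes, and 1 did not pass. That was Ppp1r1b/Syt15, named MHb-like, with the astrocyte marker Agt against 0 of its own when leading genes were taken against the other neuron clusters. The check was then redone, after that outcome was seen, with leading genes taken against the other classes, and 0 of 28 then failed; 1 had no marker of either kind. Results for MHb-like neurons are therefore also given by cluster and without Ppp1r1b/Syt15.

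Counts were summed per class and library. Levels have exact Poisson, ratios exact conditional binomial and shares exact Clopper-Pearson intervals at 95%. Ratios between libraries needed 20 UMIs over both libraries and 50 cells in each, and a fold of 1.5 was used. Thinned shares are means over all draws. TMM factors came from edgeR 4.0.16. Alternatives changed the UMI minimum, doublet removal, free RNA, cell weights, classes, scaling, fold and clustering. Interval and thinning code was tested on simulated data. The 4 receptors and all lists were chosen with earlier results of these data known. Genes named were the receptors, the 5 most like each, list members at the ends or the top of a list, and members of short lists counted at or near 0; any other is marked as named after its values were seen. One list gene is not reported here.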

Additional observations from a re-analysis of the deposited data

How the results depend on the processing

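No paired analysis was possible because each group has 1 library. The cause of the shifts below was not tested. The foot shock over control ratios of Gpr26, Gpr139 and Gpr4 stayed within their counting intervals under all 11 alternatives, as did that of Gpr151 under 10 of 11 in MHb-like and 9 of 11 in LHb-like neurons. The Gpr151 ratio was 1.05 in MHb-like neurons without Ppp1r1b/Syt15, and in LHb-like neurons 1.72 with 1 Pou4f1 count per 10000 and 1.84 with classes from marker UMIs. The MHb-like over LHb-like ratio of Gpr151, in foot shock and then control, was 0.537 and 0.665 with a minimum of 500 UMIs, 0.779 and 1.16 with 1 Pou4f1 count, 0.984 and 1.60 with marker UMIs, and 0.483 and 0.653 without Ppp1r1b/Syt15; in foot shock it was 0.655 with cells weighted equally. With marker UMIs that of Gpr26 was 1.69 and 1.92, and in control that of Gpr139 was 2.17 and of Gpr4 13.5, while free RNA subtraction gave 229 for Gpr4 from a lateral count of 3 UMIs; with 1 Pou4f1 count that of Gpr26 in control was 1.47. List genes higher in MHb-like neurons numbered 2, and 0 at a fold of 2, 10 at 1 UMI and 1 at 100 UMIs; those lower numbered 1, and 0, 10 and 0. List genes higher in LHb-like neurons numbered 1, and 3 at 1 UMI and 0 at 100; those lower numbered 2, and 0 at a fold of 2, 14 at 1 UMI, 1 at 100 and 1 with TMM scaling. The Pou4f1 setting, the omitted clusters and the fixed makeup were added after the data were seen. At resolution 0.5 the highest Gpr4 clusters were others, at 76.1 and 87.8 CPM, and the highest Gpr26 cluster in foot shock was Synpr/Slc5a7. Few UMIs limit the receptors in microglia-like, precursor-like and endothelial-like cells.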
